A study of Mus musculus with 19 samples.

Results

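Major urinary protein (*Mup*) genes encode small secreted lipocalins that hepatocytes release into the blood and the kidney passes into the urine. Examined here were 10 such genes, *Mup1*, *Mup3*, *Mup7*, *Mup10*, *Mup11*, *Mup12*, *Mup16*, *Mup17*, *Mup18* and *Mup20*, out of 22 *Mup* genes among the 31053 genes listed in the count table. The 10 genes were chosen by their measured values in these same libraries, so their differences between groups are given as descriptions without p-values. The 12 other *Mup* genes of the table were not chosen in this way and are given with tests further on.

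Liver RNA came from male C57BL/6 mice, labelled C57BL6J. The labels give an age of 6 to 8 weeks, which cannot be the age at killing given the treatment times, and they do not say at which point it was taken. One group received vehicle (labelled PBS, 5 libraries, with no vector stated), and the 2 other groups received thioacetamide (TAA), a hepatotoxin that causes fibrosis, at increasing doses for 12 weeks. At week 10, TAA-treated mice were injected with AAV serotype 8 vectors, either one for eGFP (AAV-GFP, 7 libraries) or a combination of one for miR-34b and one for miR-34c (AAV-miR-34b/c, 7 libraries), and they were killed 4 weeks later. These vectors use the TBG promoter, which is active in hepatocytes. TAA and a vector were both present in each TAA group and absent from the vehicle group as labelled, so their parts in a difference from vehicle cannot be told apart.

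In mice, MUPs bind and slowly release volatile pheromones, and they mark territory and individual identity in urine. Their liver transcription is known to be high in males and to depend on the pulsatile male pattern of growth hormone, with androgen, thyroid hormone and glucocorticoid as further inputs. Most genes of the cluster are recent, near-identical copies, while a few stand apart in sequence and include *Mup20*, whose product (darcin) is the male pheromone that attracts females, and *Mup3*, one of the divergent members.

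The 10 genes lie on the minus strand of chromosome 4 in 1 cluster that spans 59956804 to 62150863 for the coding *Mup* genes (GRCm38, GENCODE annotation). *Mup7* (ENSMUSG00000073842) lies at chr4:60066469-60070475, *Mup1* (ENSMUSG00000078683) at chr4:60498012-60501960 and *Mup10* (ENSMUSG00000078680) at chr4:60578260-60582199. *Mup11* (ENSMUSG00000073834) lies at chr4:60658466-60662411, *Mup12* (ENSMUSG00000094793) at chr4:60737383-60741326 and *Mup16* (ENSMUSG00000078675) at chr4:61515592-61519531. *Mup17* (ENSMUSG00000096688) lies at chr4:61591929-61595871, *Mup18* (ENSMUSG00000078674) at chr4:61670177-61674136, *Mup20* (ENSMUSG00000078672) at chr4:62050234-62054158 and *Mup3* (ENSMUSG00000066154) at chr4:62083476-62087342. The annotation also holds 27 *Mup* pseudogenes, none of which is listed in the table.

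By coding sequence the 10 genes split into 8 near-identical copies and 2 genes that stand apart. The 28 pairs among *Mup1*, *Mup7*, *Mup10*, *Mup11*, *Mup12*, *Mup16*, *Mup17* and *Mup18* share 98.35% to 99.82% of aligned coding bases. *Mup20* shares 90.11% to 91.39% with these 8 genes, *Mup3* shares 82.86% to 84.11% with them, and *Mup3* and *Mup20* share 87.66% with each other. The first 120 coding bases show the split. In the lines that follow (sense strand, 5′ to 3′, GENCODE transcripts on GRCm38) capitals mark bases with no equal base in *Mup17* at the aligned position. *Mup11* is shown as a near-identical copy, with 3 such bases from 1 inserted codon, and *Mup20* and *Mup3* are shown with 7 and 24.
Mup17: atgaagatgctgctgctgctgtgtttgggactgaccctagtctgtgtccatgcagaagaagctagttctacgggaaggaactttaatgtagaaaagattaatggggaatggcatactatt
Mup11: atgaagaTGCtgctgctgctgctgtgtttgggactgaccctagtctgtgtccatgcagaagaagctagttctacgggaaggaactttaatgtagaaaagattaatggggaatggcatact
Mup20: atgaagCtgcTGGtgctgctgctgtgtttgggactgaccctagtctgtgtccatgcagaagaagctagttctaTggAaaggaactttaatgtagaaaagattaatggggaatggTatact
Mup3: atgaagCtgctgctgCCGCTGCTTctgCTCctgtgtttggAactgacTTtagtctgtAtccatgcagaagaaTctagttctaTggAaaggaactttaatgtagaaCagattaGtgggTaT

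The libraries read 100 bases near the 3′ end of transcripts, and the near-identity of the copies limits which gene such a read can be given to. In the last 300 bases of each transcript there are 201 windows of 100 bases. For *Mup3* and *Mup20* all 201 windows occur in no other annotated gene. The number of windows found in 1 gene alone was 187 for *Mup17*, 128 for *Mup11*, 65 for *Mup16*, 65 for *Mup18*, 50 for *Mup12*, 2 for *Mup7*, and 0 for *Mup1* and *Mup10*. The counts of each of the 8 copies can therefore hold reads of other copies or lack some of their own. By these windows, *Mup1*, *Mup7* and *Mup10* are the most exposed. The sum over the 8 copies is given beside the single genes for this reason.

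In the DNA before the start, *Mup3* also stood apart from the copies compared. RefSeq promoter windows (GRCm38.p6, 250 bases before to 50 bases after the start) were matched for 6 of the 10 genes, *Mup3*, *Mup7*, *Mup10*, *Mup11*, *Mup17* and *Mup18*. Over the aligned bases, the window of *Mup17* was 98.92% identical to that of *Mup11*, 95.33% to that of *Mup18* and 77.58% to that of *Mup3*. The letters TATATAA, searched on both strands, occurred in 5 of the 6 windows and in 3.242% of all 32851 promoter windows of the same length. The window of *Mup7*, the exception, lay further upstream and aligned with those of the other copies over 161 to 194 bases. It ended before the stretch that holds TATATAA in the other copies, so that stretch was not searched in *Mup7*. The letters TTCNNNGAA, the palindrome that STAT factors bind, were in 0 of the 6 windows and in 8.298% of all windows. These are matches of letters and no more than that. The 250 bases before the RefSeq start, which lies inside the GENCODE gene for these 3 genes so that the window overlaps the gene positions above, are printed for *Mup17*, which had the lowest ratio to vehicle, for *Mup18* and for *Mup3*, in the direction of the gene, with TATATAA in capitals.
Mup17, chr4:61595833-61596082, minus strand: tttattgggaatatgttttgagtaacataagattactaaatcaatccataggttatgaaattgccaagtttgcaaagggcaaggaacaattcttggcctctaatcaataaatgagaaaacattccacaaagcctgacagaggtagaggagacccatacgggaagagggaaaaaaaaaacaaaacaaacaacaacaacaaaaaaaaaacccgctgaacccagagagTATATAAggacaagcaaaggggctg
Mup18, chr4:61674095-61674344, minus strand: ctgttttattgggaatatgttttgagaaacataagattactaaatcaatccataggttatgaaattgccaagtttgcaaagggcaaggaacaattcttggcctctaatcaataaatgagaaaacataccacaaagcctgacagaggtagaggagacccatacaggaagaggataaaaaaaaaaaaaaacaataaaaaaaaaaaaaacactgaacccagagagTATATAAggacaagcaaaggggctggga
Mup3, chr4:62087318-62087567, minus strand: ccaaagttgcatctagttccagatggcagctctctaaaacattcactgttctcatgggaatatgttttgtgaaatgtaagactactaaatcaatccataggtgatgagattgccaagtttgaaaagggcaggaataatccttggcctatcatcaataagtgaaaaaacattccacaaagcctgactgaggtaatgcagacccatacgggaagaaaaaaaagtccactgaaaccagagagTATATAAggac

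Total counts on genes were 2214073 to 5208405 per library. All 10 hepatocyte markers looked up, among them *Alb*, were detected in every group. In 6 pairs of libraries within a group (vehicle 1 and 4, vehicle 3 and 5, AAV-GFP 1 and 2, AAV-miR-34b/c 1 and 2, 3 and 4, and 5 and 7) the counts were closer than in all other pairs, with a coefficient of variation beyond counting of 0.0812 to 0.171 against 0.215 to 0.48 in the 46 other pairs. They were analysed as separate samples, and for the genes and lists run with each such pair summed, the result is given beside the calls it changes. The labels number the libraries without naming the animals, so errors and p-values measure the spread between these libraries.

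In livers of vehicle-treated mice the 10 genes together took a few percent of all counts. Their summed share of counts was 2.53% in the lowest library, 2.97% in the median and 5.16% in the highest. The share was 0.596%, 1.17% and 2.93% in AAV-GFP-injected mice and 0.627%, 0.808% and 1.55% in AAV-miR-34b/c-injected mice. The AAV-miR-34b/c libraries all lay below the vehicle libraries, whereas the AAV-GFP libraries overlapped them. Levels are given as CPM, the depth-scaled unit of counts, with library sizes normalized by TMM. On the log2 CPM scale (prior count 2) the sum of the 10 genes was 15.06 ± 0.46 (SD, n = 5) with vehicle, 13.55 ± 0.84 (SD, n = 7) with AAV-GFP and 13.26 ± 0.47 (SD, n = 7) with AAV-miR-34b/c. In bulk liver RNA, fewer hepatocytes and less RNA per hepatocyte cannot be told apart. *Alb*, which encodes albumin, was at 29512 to 51247 CPM with vehicle, 33140.3 to 41527 CPM with AAV-GFP and 20107 to 52518 CPM with AAV-miR-34b/c, and its groups overlapped.

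The order of the genes within vehicle livers was *Mup11*, *Mup3*, *Mup17*, *Mup16*, *Mup20*, *Mup18*, *Mup1*, *Mup12*, *Mup7* and *Mup10* by mean CPM, and it was the same per transcript length. Several neighbours in this order were not separated. *Mup16* and *Mup20* (means of 3099 and 3065 CPM) changed places between libraries, as did *Mup18* and *Mup1* (1077 and 1025 CPM) and *Mup3* and *Mup17* (8504 and 5374 CPM). The ranges did not overlap between *Mup20* and *Mup18*, between *Mup1* and *Mup12*, or between *Mup12* and *Mup7*. In AAV-GFP livers the first 2 places were taken by *Mup3* (7249 CPM) and *Mup20* (4930.1 CPM), and *Mup17* was eighth. In AAV-miR-34b/c livers the order began with *Mup3* (5760 CPM), *Mup20* (1767 CPM) and *Mup11* (1722 CPM), of which *Mup20* and *Mup11* overlapped.

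**Figure D1:**
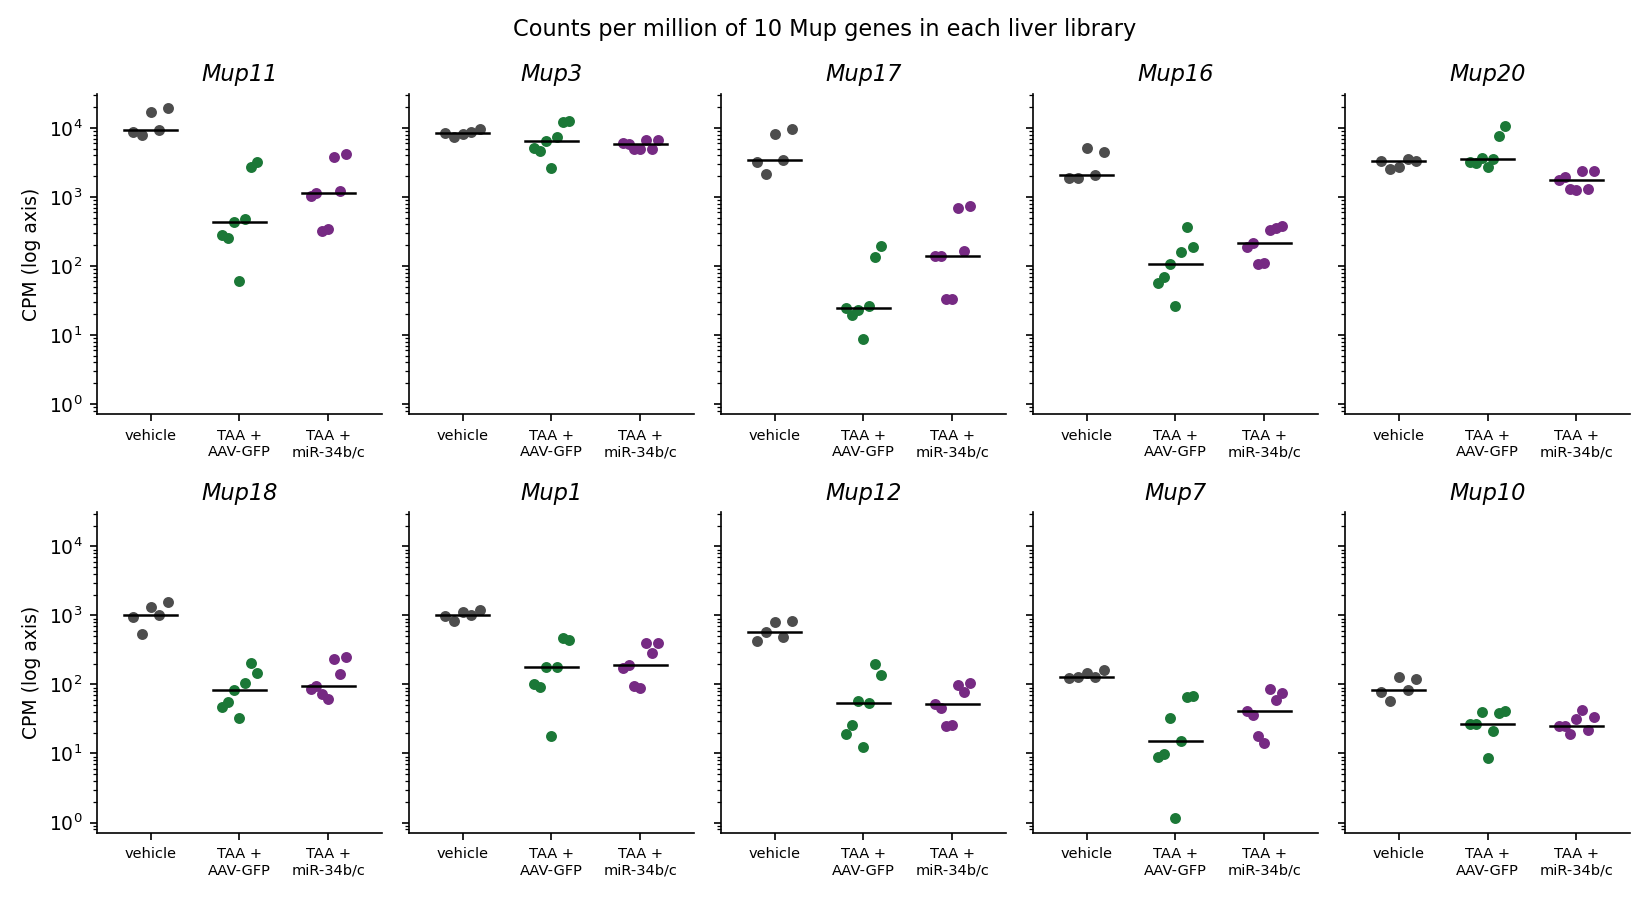
CPM of the 10 *Mup* genes on a log axis, 1 point per library (5 vehicle, 7 AAV-GFP, 7 AAV-miR-34b/c) with the group median as a line. For 8 genes, every library of both TAA groups lies below every vehicle library, while *Mup3* and *Mup20* overlap vehicle with AAV-GFP and *Mup20* is lowest with AAV-miR-34b/c.

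The comparison of AAV-GFP with vehicle asks what the TAA-injured liver with a control vector looks like. The 8 near-identical copies were lower in every AAV-GFP library than in every vehicle library, while *Mup3* and *Mup20* overlapped. Summed over the 8 copies, the 5 vehicle libraries were at 16519, 14097, 34055, 17577 and 37538 CPM. The AAV-GFP libraries were at 169 CPM (lowest), 952 CPM (median) and 4478 CPM (highest). The mean log2 CPM of this sum differed by -4.46 between AAV-GFP and vehicle, and vehicle libraries 3 and 5 were the highest of their group. The groups did not overlap for 8 of the 10 genes, all lower, where 2.19% of the 9522 genes tested were lower without overlap and 2.59% were higher. As the genes were selected on these values, nothing is read from this count.

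*Mup17* had the largest difference of the 10 genes. It was at 3210 CPM, 2161 CPM, 8304 CPM, 3451 CPM and 9745 CPM in the vehicle libraries and at 8.67 CPM (lowest), 24.8 CPM (median) and 196 CPM (highest) with AAV-GFP. The 2 highest AAV-GFP libraries, 6 and 7, were still more than an order of magnitude below the lowest vehicle library. The log2 fold change from the fit over all genes was -6.45 (standard error 0.68), and it stayed between -7.11 and -6.12 with each library left out in turn and was -6.16 with close pairs summed.

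*Mup16* followed, at 1898 CPM, 1856 CPM, 5166 CPM, 2053 CPM and 4521 CPM with vehicle and at 26.3 CPM to 368 CPM (median 107 CPM) with AAV-GFP. Its log2 fold change was -4.48 (standard error 0.49). *Mup11*, the most counted *Mup* gene of vehicle livers, was at 8852 CPM, 7929.6 CPM, 17074 CPM, 9357 CPM and 19425 CPM with vehicle and at 60.7 CPM, 427 CPM and 3254 CPM (lowest, median, highest) with AAV-GFP, and the fit gave -3.55 on the log2 scale (standard error 0.68). Without AAV-GFP library 7 the fit for *Mup11* gave -4.15. Within vehicle, libraries 3 and 5, which form a close pair, were the highest for *Mup11*, *Mup16* and *Mup17*.

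The remaining copies had smaller differences. *Mup18* was at 546 CPM to 1558 CPM with vehicle and 32.6 CPM to 204 CPM with AAV-GFP (log2 fold change -3.48, standard error 0.36). *Mup12* was at 429 CPM to 819 CPM against 12.4 CPM to 197 CPM (-3.11, standard error 0.49). *Mup1* was at 833 CPM to 1187 CPM against 18.2 CPM to 478 CPM (-2.27, standard error 0.47). *Mup7* was at 125 CPM to 164 CPM against 1.16 CPM to 67.3 CPM (-2.27, standard error 0.51), with 4 counts in AAV-GFP library 4. *Mup10* was at 57.6 CPM to 130 CPM against 8.67 CPM to 40.8 CPM (-1.70, standard error 0.28). *Mup7*, *Mup1* and *Mup10*, whose 3′ ends have 2, 0 and 0 windows of their own, had the smallest differences of the 8. Of the other *Mup* genes tested, *Mup15*, *Mup14*, *Mup2*, *Mup8* and *Mup22* also had 0 such windows. Their log2 fold changes were -6.23, -1.87, -1.16, -0.76 and 0.27. What shared reads add to these values was not tested.

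*Mup3* and *Mup20* did not follow the copies in this comparison. *Mup3* was at 8476 CPM, 7486 CPM, 8273 CPM, 8689 CPM and 9597 CPM with vehicle and at 2657 CPM, 6520.3 CPM and 12452 CPM (lowest, median, highest) with AAV-GFP. Libraries of AAV-GFP lay on both sides of vehicle, and the fit gave -0.23 on the log2 scale (standard error 0.29). *Mup20* was at 3287 CPM, 2509 CPM, 2697 CPM, 3515 CPM and 3315 CPM with vehicle and at 2704 CPM, 3536 CPM and 10783 CPM with AAV-GFP. Its log2 fold change was 0.69 (standard error 0.30). This value rests in part on AAV-GFP library 7, the highest, without which it was 0.37. That of *Mup3* was -0.41 without library 7 and -0.08 without library 4, the lowest.

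The make-up of the *Mup* counts differed between the groups. *Mup20* gave 5.99% to 11.8% of the counts on the 10 genes with vehicle and 29.8% to 48.9% with AAV-GFP. *Mup3* gave 18.4% to 31.1% with vehicle and 44.9% to 61.4% with AAV-GFP. The 8 copies together gave 58.4% to 75.6% with vehicle and 3.05% to 17.6% with AAV-GFP. Within the copies the make-up differed too, as the ratio of *Mup17* to *Mup11* in CPM was 0.272 to 0.502 with vehicle and 0.0485 to 0.143 with AAV-GFP. These shares and ratios come from the same values that chose the genes.

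**Figure D2:**
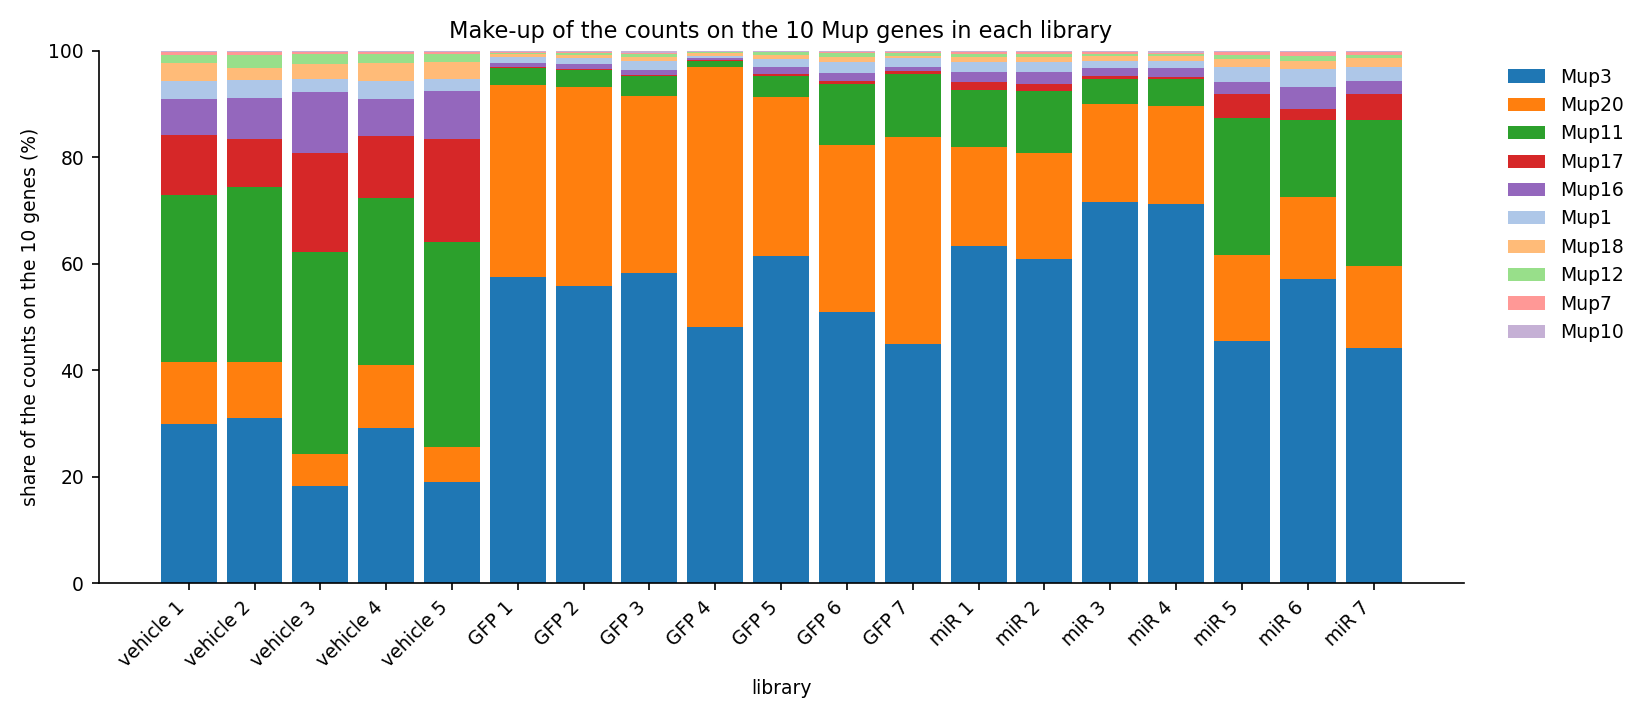
Share of the counts on the 10 *Mup* genes that each gene took, in percent, with 1 stacked bar per library. The copies, led by *Mup11*, fill 58.4% to 75.6% of the bar with vehicle, 3.05% to 17.6% with AAV-GFP and 9.93% to 40.3% with AAV-miR-34b/c.

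With AAV-miR-34b/c and TAA, all 10 genes were lower than with vehicle in every library. The groups did not overlap for 10 of 10 genes, all lower, where 3.82% of 9290 genes tested were lower without overlap and 3.96% were higher, and again nothing is read from a count of genes chosen by such values. The vehicle libraries are the same as in the previous comparison. Summed over the 8 copies, AAV-miR-34b/c libraries were at 697 CPM, 1877 CPM and 6177 CPM (lowest, median, highest), a difference in mean log2 CPM of -3.46 from vehicle.

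*Mup17* again had the largest difference, at 33.2 CPM, 140 CPM and 743 CPM (lowest, median, highest) and a log2 fold change of -4.27 (standard error 0.70) against vehicle. *Mup16* was at 108 CPM, 214 CPM and 377 CPM (-3.67, standard error 0.36), and *Mup11* was at 325 CPM, 1133 CPM and 4186 CPM (-2.86, standard error 0.54). *Mup18* was at 61.6 CPM, 96.2 CPM and 254 CPM (-2.99, standard error 0.35) and *Mup12* at 25.1 CPM, 51.5 CPM and 106 CPM (-3.34, standard error 0.33). *Mup1*, *Mup10* and *Mup7* had log2 fold changes of -2.13, -1.72 and -1.54 (standard errors 0.32, 0.22 and 0.33).

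The genes that stand apart differed least from vehicle here as well. *Mup3* was at 4882 CPM, 5943 CPM and 6776 CPM, all below the lowest vehicle library at 7486 CPM, and the fit gave -0.56 on the log2 scale (standard error 0.15). *Mup20* was at 1256 CPM, 1771 CPM and 2415 CPM, with the highest library just below the lowest vehicle library at 2509 CPM, and its log2 fold change was -0.79 (standard error 0.19). All 200 values of the 10 genes under the alternatives tried for this comparison, and all 200 for AAV-GFP against vehicle, kept their sign.

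Between the TAA groups, which asks for the effect of the miRNA vector in injured liver, the 8 copies overlapped and *Mup20* did not. *Mup20* was at 1256 CPM to 2415 CPM with AAV-miR-34b/c and at 2704 CPM to 10783 CPM with AAV-GFP. Its fitted difference was -1.49 on the log2 scale (standard error 0.30). It was -1.17 without AAV-GFP library 7 and -1.60 without AAV-GFP library 4, the ends of the range when 1 library was left out. The groups did not overlap for 1 of the 10 genes, where 0.616% of 9252 genes tested were lower without overlap and 0.767% were higher. Because this gene's group values were among those that chose it, the count is given without a reading.

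For the copies, the middle of the AAV-miR-34b/c group lay above that of the AAV-GFP group in several cases, within wide spreads. The fitted log2 difference of *Mup17* was 2.16 (standard error 0.75), with medians of 140 CPM and 24.8 CPM, and 5 of the 7 AAV-miR-34b/c libraries lay inside the AAV-GFP range while libraries 5 and 7 lay above it. The fold changes of *Mup16*, *Mup7*, *Mup11* and *Mup18* were 0.79, 0.72, 0.68 and 0.48, with standard errors of 0.44, 0.57, 0.73 and 0.39. Single libraries moved these values. *Mup17* was at 1.68 without AAV-miR-34b/c library 7 and 2.81 without AAV-GFP library 7. *Mup11* was at 0.28 without AAV-miR-34b/c library 7 and 1.27 without AAV-GFP library 7, *Mup18* at 0.25 without AAV-miR-34b/c library 7 and 0.77 without AAV-GFP library 6, *Mup16* at 1.25 without AAV-GFP library 6 and *Mup7* at 1.08 without AAV-GFP library 7. *Mup1*, *Mup10* and *Mup12* were at 0.12, -0.03 and -0.24 (standard errors 0.51, 0.27 and 0.51), and the sign of these 3 turned under some alternatives. *Mup3* was at -0.34 (standard error 0.27), and at -0.16 without AAV-GFP library 7 and -0.17 without AAV-GFP library 6.

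The sum of all 10 genes and the sum of the copies had opposite signs between the TAA groups. The mean log2 CPM differed by -0.29 for the 10 genes, in which *Mup3* and *Mup20* hold most counts, and by 1.01 for the 8 copies, and both sums overlapped. The first value was -0.085 without AAV-GFP library 7 and -0.47 without AAV-GFP library 4. *Mup20* took 15.4% to 20.0% of the counts on the 10 genes with AAV-miR-34b/c, below the 29.8% of the lowest AAV-GFP library. The ratio of *Mup17* to *Mup11* was 0.0962 to 0.18 with AAV-miR-34b/c, overlapping that of AAV-GFP.

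**Figure D3:**
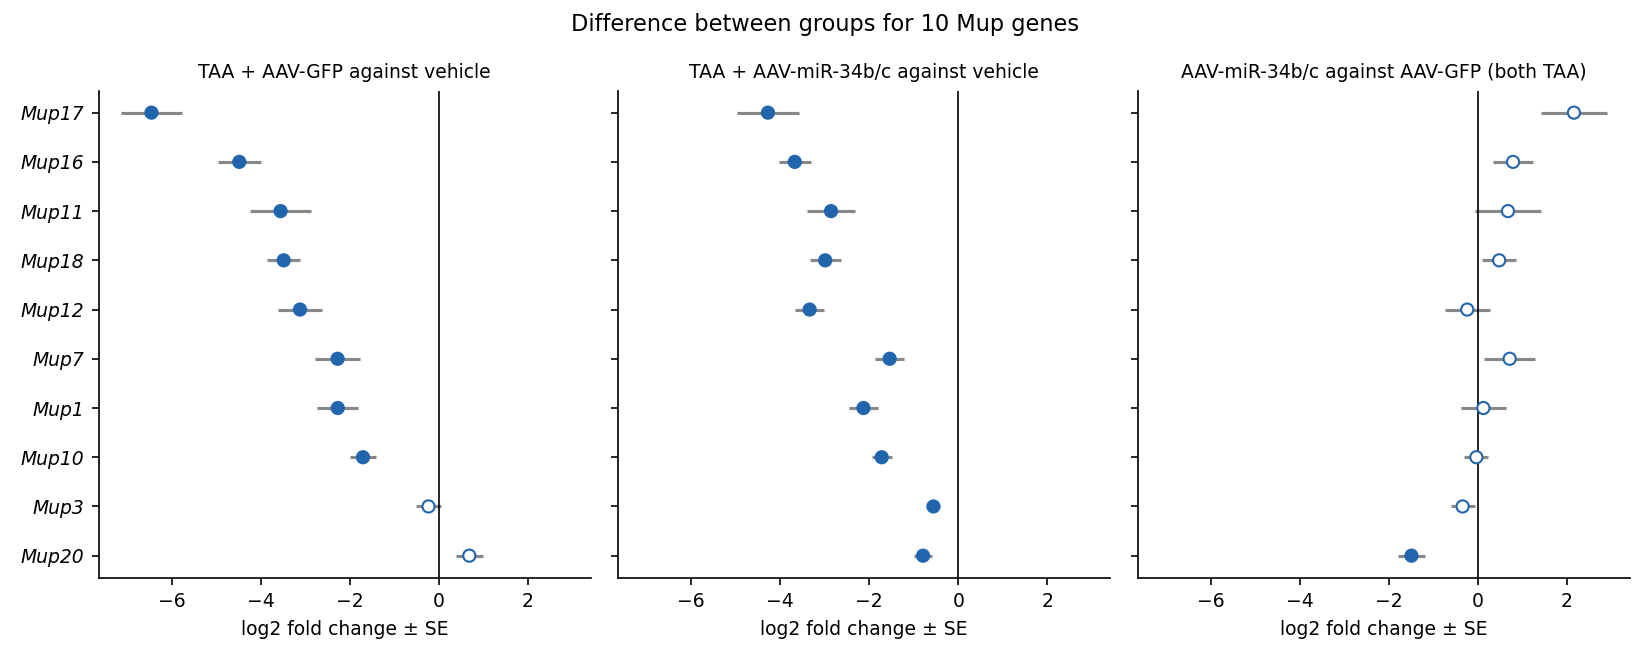
Log2 fold change with its standard error (bars) of the 10 *Mup* genes in the 3 comparisons, with filled points where the libraries of the groups did not overlap. *Mup17* lies lowest against vehicle at -6.45 and -4.27, and *Mup20* is the only filled point between the TAA groups at -1.49.

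The livers of a TAA group were not alike, and libraries of a group that were high for one of the genes tended to be high for the others. After subtraction of group means, Pearson's r of log2 CPM over the 19 libraries was 0.682 to 0.982 among the 28 pairs of copies, with a median of 0.905. It was 0.749 to 0.917 between *Mup3* and the copies, 0.599 to 0.881 between *Mup20* and the copies and 0.873 between *Mup3* and *Mup20*. The points share libraries, depth and, among the copies, possibly reads, and the values are descriptions. AAV-GFP libraries 6 and 7 were the highest 2 of their group for the sum of the copies (4225 CPM and 4478 CPM) and AAV-miR-34b/c libraries 5 and 7, a close pair, were the highest 2 of theirs (5684 CPM and 6177 CPM).

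By the same measure, the 5 genes outside the family most like the sum of the 10 genes, among 6525 genes of at least 10 CPM on average, were *Cyp2c67* (r = 0.929, Spearman's rho = 0.923), *Fabp1* (0.899 and 0.865), *Cyp7b1* (0.884 and 0.865), *Hes6* (0.884 and 0.907) and *Acadsb* (0.876 and 0.805). The 5 most opposite were *Tab2* (-0.927 and -0.932), *C3* (-0.894 and -0.823), *Lrp1* (-0.867 and -0.789), *Sox9* (-0.867 and -0.893) and *Prg4* (-0.865 and -0.796). *Fabp1* encodes the liver fatty acid-binding protein, *Cyp7b1* an oxysterol hydroxylase, *C3* the central complement component and *Sox9* a transcription factor of bile duct cells. Without AAV-GFP libraries 6 and 7, which lay farthest from the median of the sum after group means were subtracted, r was 0.77 to 0.923 for the first 5 genes and -0.889 to -0.757 for the second 5. These genes were picked as the extremes of all genes compared.

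The 12 other *Mup* genes are counted in the same table and, where near-identical, can take reads from the 10 genes or lose reads to them, so their tests are not independent of the values above. With AAV-GFP against vehicle, 9 of the 12 passed the filter on low counts, and 4 of these fell and 0 rose at an edgeR adjusted p under 0.05, where 5.18% of all genes tested fell and 7.54% rose. *Mup15*, a near-identical copy with 0 windows of its own, was at 475 CPM to 2102 CPM with vehicle and 0 CPM to 60.4 CPM with AAV-GFP. It fell, with a log2 fold change of -6.23 (edgeR adjusted p = 3.573e-05). The others that fell were *Mup9* at -3.94 (edgeR adjusted p = 1.746e-05), *Mup14* at -1.87 (edgeR adjusted p = 0.00194) and *Mup2* at -1.16 (edgeR adjusted p = 0.0499). The call of *Mup2* was lost under 12 of 20 alternatives, with an edgeR adjusted p of 0.215 when close pairs were summed.

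The less similar *Mup4*, *Mup6* and *Mup21*, which share no 3′ window with another gene, did not pass the test with AAV-GFP, at log2 fold changes of -0.62, -0.78 and 0.37 (edgeR adjusted p = 0.332, 0.212 and 0.587). *Mup6* passed without AAV-GFP library 7, at -1.38 (edgeR adjusted p = 0.00507). Without that library *Mup21* was at -0.04, and without vehicle library 5 *Mup4* was at -0.32. Among the near-identical copies, *Mup8* and *Mup22* did not pass either, at -0.76 and 0.27 (edgeR adjusted p = 0.25 and 0.738), with group means of 4.04 to 11.8 CPM. With the replicate number as a block, *Mup6* and *Mup8* passed, at -1.65 and -1.69 (edgeR adjusted p = 0.000421 and 0.00138). That fit keeps only numbers present in both groups, which left out AAV-GFP libraries 6 and 7, the highest of their group for both genes. Under this block *Mup21* was at -0.65 and *Mup22* at -0.49, and *Mup22* was at -0.06 without AAV-GFP library 7, so their signs turned. With AAV-miR-34b/c against vehicle, 5 of 8 tested genes fell and 0 rose, where 9.75% of all genes tested fell and 12.2% rose. They were *Mup15* at -4.29 (edgeR adjusted p = 0.000436), *Mup9* at -3.72 (edgeR adjusted p = 0.000119), *Mup2* at -2.02 (edgeR adjusted p = 0.00104), *Mup6* at -1.74 (edgeR adjusted p = 0.00153) and *Mup14* at -1.47 (edgeR adjusted p = 0.00806, lost with close pairs summed at 0.0676). Between the TAA groups, where 1.95% of all genes tested rose and 1.42% fell, 0 of 8 passed with edgeR or DESeq2. A list of this size can hold none at such shares, and 3 of the 8 had an unadjusted p under 0.05 with edgeR. *Mup5*, at 0 to 15 counts per library, and *Mup13* and *Mup19*, at no more than 5, passed no filter.

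**Figure D4:**
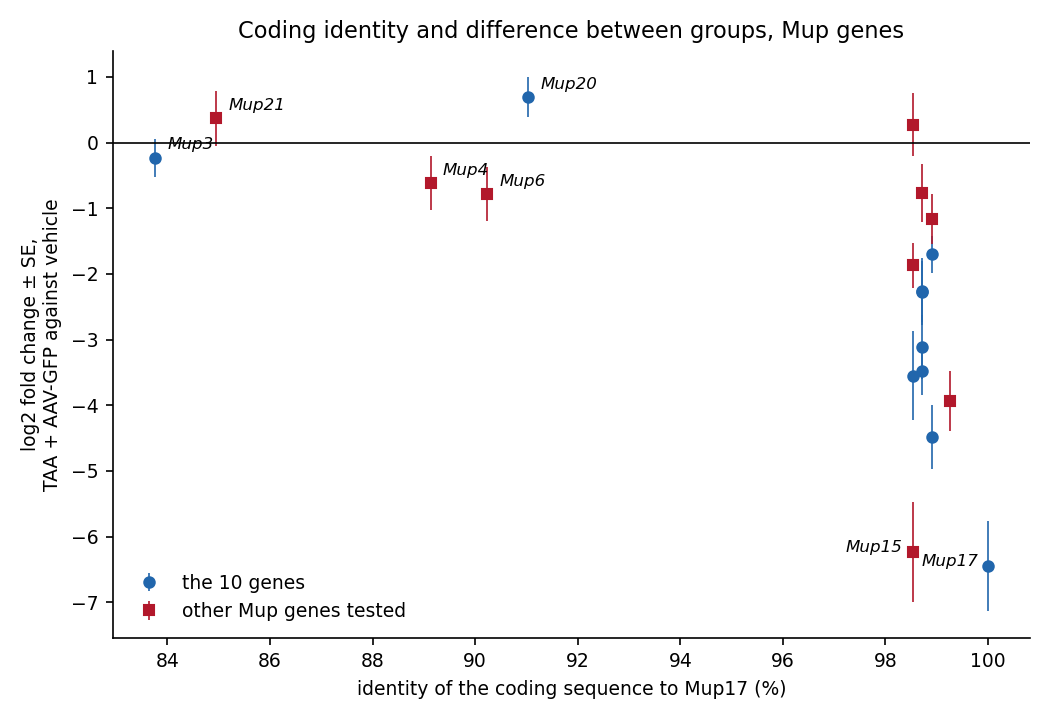
Identity of the coding sequence to that of *Mup17* (percent, x axis) and log2 fold change with standard error between AAV-GFP and vehicle (y axis) for the 10 genes (circles) and the 9 other *Mup* genes tested (squares). The 5 genes at 83.75% to 91.03% identity lie between -0.78 and 0.69, and those at 98.53% or more reach from 0.27 down to -6.45.

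Genes of other families that are known to be higher in male than in female mouse liver, a list without *Mup* genes, were tested beside them. This list and those that follow were chosen with earlier results of these data known. Their counts and p-values are therefore not an independent test. With AAV-GFP against vehicle, 10 of 20 tested genes fell and 2 rose by edgeR, where 5.18% of all genes fell and 7.54% rose, with a median log2 fold change of -0.72 against -0.01 over all genes. *Moxd1*, a monooxygenase-like protein, was at 38.8 CPM to 158 CPM with vehicle and at 0 to 1 count per library with AAV-GFP (edgeR adjusted p = 1.517e-09). The log2 fold change was -4.84 for *Susd4*, a complement-regulating membrane protein (edgeR adjusted p = 3.503e-07), -2.86 for *Serpine2*, a protease inhibitor (edgeR adjusted p = 7.876e-06), -2.27 for *Hsd3b5*, a steroid reductase (edgeR adjusted p = 0.00164) and -1.51 for *Selenbp2* (edgeR adjusted p = 0.00793). *Cyp4a12a* and *Cyp4a12b*, near-identical fatty acid hydroxylases that can exchange reads, rose by 0.96 and 0.91 (edgeR adjusted p = 0.0283 and 0.0164). Without vehicle library 1 or 4, or with close pairs summed, 0 of the list rose, and with close pairs summed 4 fell.

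With AAV-miR-34b/c against vehicle, 11 of 20 genes of this list fell and 0 rose by edgeR, beside 9.75% and 12.2% of all genes (6 and 0 with close pairs summed; 11 and 0 with DESeq2), where 11 genes had an unadjusted p under 0.05, and the median was -0.72 against 0.02 over all genes. The log2 fold change was -4.04 for *Serpine2* (edgeR adjusted p = 3.241e-06), -2.90 for *Susd4* (edgeR adjusted p = 9.997e-05), -3.19 for *Moxd1* (edgeR adjusted p = 0.000119), -1.40 for *Cyp7b1* (edgeR adjusted p = 0.000385) and -2.23 for *Ugt2b38*, a glucuronosyltransferase (edgeR adjusted p = 0.00117). Between the TAA groups, 1 of 19 rose and 2 fell, where 1.95% of all genes tested rose and 1.42% fell. DESeq2 called 3 higher and 3 lower. The edgeR count of higher genes was 2 without AAV-miR-34b/c library 1 or 2 or AAV-GFP library 6. That of lower genes was 1 without AAV-GFP library 6 or 7 and 3 without AAV-GFP library 5. *Moxd1* rose and reached 11 to 55 counts in the libraries of AAV-miR-34b/c (edgeR adjusted p = 5.813e-06). *Ugt2b1* and *Ugt2b38* fell, at -1.10 and -2.06 (edgeR adjusted p = 0.0106 and 0.0229), calls that were lost with close pairs summed.

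**Figure D5:**
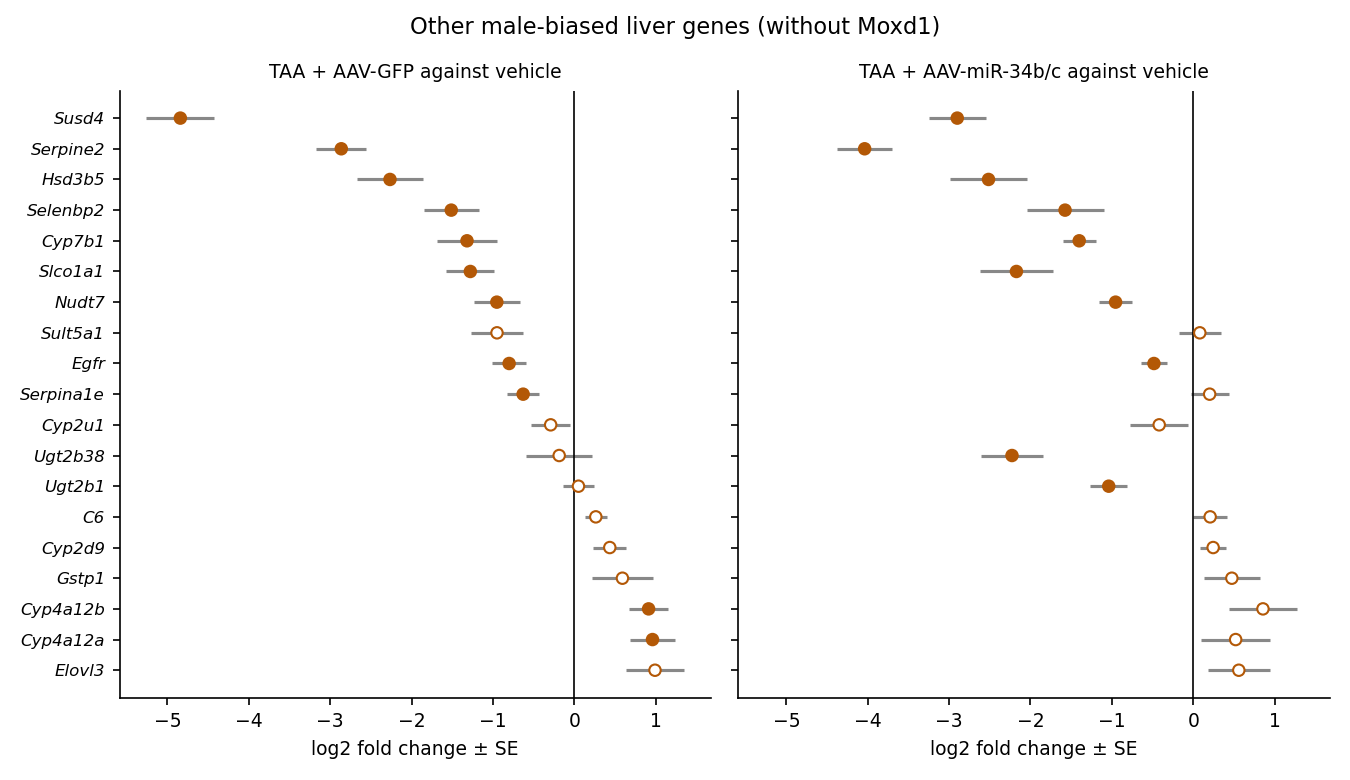
Log2 fold change with standard error of male-biased liver genes outside the *Mup* family against vehicle, with filled points at an edgeR adjusted p under 0.05. *Moxd1* is left out because it had at most 1 count per AAV-GFP library. *Susd4*, *Serpine2* and *Hsd3b5* lie lowest with AAV-GFP, and *Cyp4a12a* and *Cyp4a12b* lie to the right of 0.

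Female-biased liver genes were mostly too low to test. Of 22 listed, 5 were tested with AAV-GFP against vehicle (7.54% of all genes higher and 5.18% lower), of which *Abcd2* rose by 1.30 (edgeR adjusted p = 0.0378) and *Tox* and *Cyp17a1* fell, at -2.25 and -1.89 (edgeR adjusted p = 0.00114 and 0.0145). The list's 1 higher call was lost without AAV-GFP library 1, 3 or 4, and the count of higher genes was 2 without vehicle library 3. With close pairs summed, 1 of the 2 lower calls was lost. With AAV-miR-34b/c against vehicle (12.2% higher and 9.75% lower over all genes), 1 of 5 passed, *Tox*, which fell, at -1.84 (edgeR adjusted p = 0.0121), and was lost with close pairs summed. In the comparison of the TAA groups (1.95% higher and 1.42% lower over all genes), 1 of 4 passed, *Cyp17a1*, a steroid hydroxylase, which rose by 3.04 (edgeR adjusted p = 0.00415). This call was lost with the replicate number as a block.

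The growth hormone axis, which carries the male signal to *Mup* genes through the receptor *Ghr* and STAT5, was tested in 13 genes. With AAV-GFP against vehicle 1 rose and 0 fell by edgeR, a share near the 7.54% and 5.18% over all genes, 2 had an unadjusted p under 0.05, and DESeq2 also gave 1 and 0. The gene that rose was *Socs3*, an inhibitor of cytokine receptor signalling, by 1.11 (edgeR adjusted p = 0.0129), which was lost with close pairs summed. The count of higher genes was 2 without AAV-GFP library 6 or 7. With AAV-miR-34b/c against vehicle, where 12.2% of all genes rose and 9.75% fell, 3 rose, *Stat3* by 1.26, *Ptpn1* by 1.44 and *Socs3* by 1.55 (edgeR adjusted p = 0.000164, 0.00134 and 0.0066), and *Ghr* fell, at -0.48 (edgeR adjusted p = 0.0165), a call lost with close pairs summed, where 2 in place of 3 rose. The count of lower genes was 2 without vehicle library 1. For AAV-miR-34b/c against AAV-GFP, where 1.95% of all genes rose and 1.42% fell, 0 of 13 passed by edgeR. Of the 13, 4 had an unadjusted p under 0.05, and DESeq2 called 1 higher and 1 lower. By edgeR 1 rose without AAV-miR-34b/c library 1 or 2 or AAV-GFP library 4. *Igf1*, a growth hormone target, was at 861 ± 110 CPM (SD, n = 5) with vehicle, 989 ± 101 CPM (SD, n = 7) with AAV-GFP and 1071 ± 107 CPM (SD, n = 7) with AAV-miR-34b/c.

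Transcription factors known to act on *Mup* genes or in hepatocytes were tested in 12 genes. The 0 of 12 that fell in either TAA group stand beside 5.18% (AAV-GFP) and 9.75% (AAV-miR-34b/c) of all genes, shares at which a list of this size can hold none. With AAV-GFP 2 rose, beside 7.54% of all genes, and 0 fell by edgeR (4 and 0 by DESeq2), and 7 had an unadjusted p under 0.05. *Hnf4a*, a main hepatocyte factor, rose by 0.86 (edgeR adjusted p = 0.00537) and *Onecut1* by 1.49 (edgeR adjusted p = 0.0366), and neither passed with close pairs summed. The count of 2 was 1 without AAV-GFP library 1, 2, 3 or 4 or vehicle library 1, 4 or 5, and 4 without AAV-GFP library 6. With AAV-miR-34b/c 1 rose, beside 12.2% of all genes, and 0 fell by edgeR (2 and 0 by DESeq2), with 3 at an unadjusted p under 0.05, and the gene was *Hnf4a* at 1.21 (edgeR adjusted p = 9.997e-05). This count was 3 without AAV-miR-34b/c library 1 and 2 without library 2 or 4. For AAV-miR-34b/c against AAV-GFP, where 1.95% of all genes rose and 1.42% fell, 0 of 12 passed with edgeR or DESeq2. A list of this size can hold none at such shares, and 0 of the 12 had an unadjusted p under 0.05.

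Other lipocalins of the liver belong to the wider protein family of the MUPs, and 5 of them rose with AAV-miR-34b/c over AAV-GFP. With AAV-GFP against vehicle, where 5.18% of all genes fell and 7.54% rose, 5 of 9 fell and 0 rose by edgeR (4 and 0 by DESeq2), with 6 at an unadjusted p under 0.05, namely *Orm3* at -2.85, *Orm2* at -2.54, *Ptgds* at -1.95, *Orm1* at -1.203 and *Apom* at -0.77 (edgeR adjusted p = 0.00793, 0.0355, 0.0121, 0.0186 and 0.0165). The count was 3 without vehicle library 1 or 4 and 1 with close pairs summed. In the comparison of the TAA groups, where 1.95% of all genes rose and 1.42% fell, 5 of 8 rose and 0 fell by edgeR and by DESeq2, with 7 at an unadjusted p under 0.05. *Orm3* rose by 4.65, *Orm2* by 5.25, *Ambp* by 1.14, *Orm1* by 2.17 and *Lcn2* by 4.06 (edgeR adjusted p = 0.00178, 0.00196, 0.00478, 0.005 and 0.0106), and 3 passed with close pairs summed. The orosomucoids (*Orm1* to *Orm3*, which can exchange reads) and *Lcn2* are acute phase proteins. With AAV-miR-34b/c against vehicle (12.2% of all genes higher and 9.75% lower) 3 rose (*Lcn2*, *Ambp* and *Orm2*) and 2 fell (*C8g* and *Ptgds*), and 1 and 0 passed with close pairs summed. The 3 higher calls became 1 to 4 and the 2 lower calls 1 to 2 when 1 library was left out.

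Other abundant secreted proteins of hepatocytes gave no lower calls, beside 5.18% (AAV-GFP) and 9.75% (AAV-miR-34b/c) of all genes that fell against vehicle, shares at which a list of 15 can hold none. Of 15 genes, *Alb* among them, 0 passed in either direction with AAV-GFP against vehicle by edgeR, with 2 at an unadjusted p under 0.05, and *Alb* was at -0.18 (standard error 0.19). With AAV-miR-34b/c against vehicle 5 rose, beside 12.2% of all genes, and 0 fell, with 6 at an unadjusted p under 0.05, namely *Fgb*, *Trf*, *Serpina1b*, *Hp* and *Serpina1a*, by 0.55 to 1.30 on the log2 scale. For AAV-miR-34b/c against AAV-GFP 2 rose, beside 1.95% of all genes, *Fgb* by 1.35 and *Hp* by 1.56 (edgeR adjusted p = 0.00114 and 0.0145), and 0 fell, with 4 at an unadjusted p under 0.05. This list was run with edgeR alone, neither with close pairs summed nor with a library left out.

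Markers of other liver cells also differed between the groups. By edgeR, 3 of 5 tested markers of activated hepatic stellate cells and 1 of 2 cholangiocyte markers rose with AAV-GFP against vehicle and 5 of 8 macrophage markers fell, beside 7.54% and 5.18% of all genes, while 0 of 2 neutrophil markers passed (0 at an unadjusted p under 0.05). For AAV-miR-34b/c against AAV-GFP, 3 of 3 neutrophil markers and 1 of 7 macrophage markers rose and 2 of 4 stellate cell markers fell, beside 1.95% and 1.42%, while 0 of 2 cholangiocyte markers passed (1 at an unadjusted p under 0.05). Against vehicle, 4 of 4 neutrophil markers and 1 of 2 cholangiocyte markers rose with AAV-miR-34b/c and 2 of 8 macrophage markers fell, beside 12.2% and 9.75%, while 0 of 3 stellate cell markers passed (0 at an unadjusted p under 0.05). Of 10 hepatocyte markers, 1 rose with AAV-GFP against vehicle, 1 rose between the TAA groups, and 3 rose and 1 fell with AAV-miR-34b/c against vehicle. The median log2 fold change of the neutrophil markers was 4.31 between the TAA groups and 4.26 with AAV-miR-34b/c against vehicle. DESeq2 and the other alternatives were not run for these lists. The summed levels are given as ranges without a test. The summed level of 8 markers of activated hepatic stellate cells was 31.9 to 97.1 CPM with vehicle, 94.6 to 224 CPM with AAV-GFP and 50.03 to 90.2 CPM with AAV-miR-34b/c. That of 6 neutrophil markers was 16.4 to 81.5 CPM, 13.7 to 73.5 CPM and 65.5 to 1970.4 CPM, that of 8 macrophage markers 321 to 588 CPM, 227 to 396 CPM and 368 to 536 CPM, and that of 5 cholangiocyte markers 18.2 to 40.8 CPM, 52.3 to 94.2 CPM and 49.8 to 118 CPM. The ranges did not overlap between AAV-GFP and AAV-miR-34b/c for the stellate cell markers, nor between vehicle and either TAA group for the cholangiocyte markers. The stellate ranges overlapped between vehicle and both TAA groups, as did the macrophage ranges in all 3 pairs of groups and the neutrophil ranges in all 3. The 10 hepatocyte markers summed to 74684 to 96796 CPM, 73210.3 to 82079 CPM and 72978 to 116483 CPM, which overlapped. No marker was at 0 in a whole group except *Ly6g* with vehicle. Within groups, the sum of the 10 *Mup* genes had r = -0.666 with the stellate cell markers, -0.7 with the cholangiocyte markers, -0.229 with the neutrophil markers, -0.126 with the macrophage markers and -0.16 with the hepatocyte markers over the 19 libraries. It was -0.266 with the total count and -0.407 with the share of reads on mitochondrial genes. For the summed gene lists r was -0.646 with the growth hormone axis, 0.536 with the male-biased genes, -0.527 with the regulators, -0.104 with the female-biased genes, -0.076 with the other lipocalins and -0.106 with the abundant secreted proteins. Each sum was taken over CPM, so the most abundant genes of a list weigh most in r. With vehicle, *Igf1* had a mean of 861 CPM, where the growth hormone axis summed to a median of 1588 CPM. *Alb* had a mean of 41595 CPM, where the hepatocyte markers summed to a median of 86348 CPM. The part of these measures in the differences of the *Mup* genes was not tested.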

How the data were processed

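RNA of 19 liver libraries was measured by 3′-end sequencing (QuantSeq, single-end reads of 100 bases, 100 ng of RNA per the labels, slightly more in the study's methods). The authors deposited raw counts per gene from the sequencing provider's proprietary pipeline, whose version the study's methods name, and the submitters' processing notes name STAR and mm10. The annotation release, the versions of the tools within that pipeline, strand setting, handling of reads that match several genes and use of molecular identifiers are not given in the sources used here, so counts can include PCR duplicates. Total counts were 2214073 to 5208405 per library.

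Counts were scaled by TMM and fitted for each pair of groups with edgeR 4.0.16 (R 4.3.3; genes kept by filterByExpr at count 10 and total 15; glmQLFit and glmQLFTest; Benjamini-Hochberg adjustment over all genes tested, threshold 0.05), with DESeq2 1.42.0 as an alternative. Standard errors of log2 fold changes were taken as the absolute log2 fold change over the square root of the test's F statistic. Symbols and transcripts came from GENCODE (GRCm38), promoters from RefSeq, and coding sequences were aligned with Biopython 1.88 (1 transcript with a consensus coding sequence per gene).

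The 10 genes and all gene lists were chosen with earlier results of these data known. Named were the 10 genes, the other *Mup* genes with over 3 counts in a library, the 5 genes most like and the 5 most opposite to the 10 genes' sum, up to 5 called genes of each list by smallest adjusted p, *Alb*, and genes behind a count of 5 or fewer. *Mup13*, *Igf1* and the marker *Ly6g* were named outside this rule after their values were seen. Alternatives were no filter, other scalings, DESeq2, a joint fit of the 3 groups, a block for the replicate number, close pairs summed (coefficient of variation under 0.2), library size without *Mup* genes, another prior count (0.5), all *Mup* genes summed and each library left out. The block used only libraries whose number occurs in both groups. Summing the 8 near-identical genes was chosen after seeing the data.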

Additional observations from a re-analysis of the deposited data

Results flagged for a closer look

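Among the 36 sets of libraries examined (10 genes and 2 sums in 3 groups), 1 library stood far from the others of its group. *Mup10* was at 3.22 log2 CPM (8.7 CPM) in AAV-GFP library 4, the lowest of its 7 libraries, and the next library was at 4.46 log2 CPM, a gap of 0.579 of the group's range. Chance alone marks about 1 in 20 such sets, or 1.8 of 36.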

How the results depend on the processing

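For the 10 genes, the log2 fold changes kept their sign under all alternatives in both comparisons with vehicle, and 207 of 220 values kept it between the TAA groups, where *Mup1*, *Mup10* and *Mup12* turned. When only the 8 near-identical genes were summed, the difference in log2 CPM was -4.46 with AAV-GFP and -3.46 with AAV-miR-34b/c against vehicle (-1.51 and -1.80 for 10 genes), and it turned to 1.01 between the TAA groups (-0.29 for 10 genes), because *Mup3* and *Mup20* are left out. For AAV-GFP against vehicle, 1211 genes passed, against 227 with close pairs summed and 689 to 1859 with 1 library left out (728 and 689 without vehicle 1 and 4, 807 without AAV-GFP 3, 1859 without AAV-GFP 6). The 5 lists run under the alternatives (growth hormone axis, male-biased, female-biased, regulators and other lipocalins, without the secreted proteins and markers) had 23 calls, which became 7 with close pairs summed and 15 to 27 with 1 library left out (15 without vehicle 1 or 4). Between the TAA groups, 311 genes passed, against 619 with scaling by library size, 542 with DESeq2 and 87 with close pairs summed, and the lists' 9 calls became 14 with DESeq2 and 5 with close pairs summed. For AAV-miR-34b/c against vehicle, 2037 genes passed, against 331 with close pairs summed and 1267 to 2696 with 1 library left out (1328 and 1267 without vehicle 1 and 4), and the lists' 22 calls became 10 with close pairs summed. Summing pairs leaves 3, 6 and 4 samples; the other causes were not tested.

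The replicate numbers of the labels were also tried as a block. Same-numbered libraries did not deviate together, as the correlation of deviations was -0.174 to 0.348, -0.397 to 0.283 and -0.347 to 0.409 in the comparisons of AAV-GFP with vehicle, of the TAA groups, and of AAV-miR-34b/c with vehicle, and 2 of 5, 1 of 7 and 0 of 5 correlated best with their own number. The samples share only a number. Against vehicle, the block kept only numbers present in both groups, which left out libraries 6 and 7 of each TAA group. With the replicate block, 3089, 142 and 922 genes passed, and 5 of the lists' genes passed between the TAA groups. *Mup20* was then at 0.09, *Mup17* at -7.87, *Mup11* at -5.52 and *Mup12* at -4.35 for AAV-GFP against vehicle. AAV-GFP libraries 6 and 7 were the highest of their group for these genes, so the libraries used changed along with the model.

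At this depth *Mup7* and *Mup10* had as few as 4 and 30 counts in a library, and the *Mup* genes left out by the filter cannot be compared.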
